A study of Mus musculus with 12 samples.

Results

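The Zscan4 cluster is a group of near-identical zinc finger genes on mouse chromosome 7, and it is described here together with 3 genes grouped with it, Usp17le, Gm12794 and Gm12800. The 9 genes were selected on their array signals in Atr BaxBak mutants and BaxBak controls: the authors' deposited table of that comparison lists their probe sets as past the authors' test. Their difference there is given as a description and without a test. They are 9 of the 8126 genes named in that table. The comparison of Atr p53 mutants with p53 controls is not the one that lists the genes, and it was tested, although its earlier results were known when the genes were chosen. Zscan4a, Zscan4b, Zscan4c, Zscan4d, Zscan4e and Zscan4f hold 31 of the 38 named probe sets, Usp17le holds 3, and Gm12794 and Gm12800 hold 4. A probe set is a small group of array probes that reports 1 exon region or 1 exon junction. Of the 38 probe sets, 27 report exon regions and 11 report junctions.

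Zscan4 proteins carry a SCAN domain and zinc fingers. In the mouse they are known from the first cleavage stages of the embryo, when its own genome is switched on, and from a small and changing fraction of embryonic stem cells, where they have been tied to telomere lengthening and genome stability. In stem cells the transcription factor Dux activates the Zscan4 genes along with many other genes of the cleavage stage. Usp17le belongs to the Usp17-like family of deubiquitinating enzymes, which remove ubiquitin from proteins. RefSeq lists Gm12794 as Pramel19, a member of the PRAME-like family of leucine-rich repeat proteins, many of which are known from germ cells and early embryos. Gm12800 had no match in the RefSeq table used here, and its role is not given.

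The samples were 12 whole cerebella of C57BL/6 mice at postnatal day 3, in 4 groups of 3. The Atr BaxBak mutants were Atr-loxP/loxP together with Bax-loxP/loxP and Bak--/-, and the BaxBak controls were Bax-loxP/loxP and Bak--/-. The Atr p53 mutants were Atr-loxP/loxP together with p53-loxP/loxP, and the p53 controls were p53-loxP/loxP. All 12 animals, controls included, carried Math1-Cre, which acts in the granule cell lineage, so that floxed alleles remained intact in the other cells of the tissue. Atr encodes the kinase that signals stalled replication forks, Bax and Bak encode the proteins that open mitochondria in apoptosis, and p53 is the tumour suppressor that responds to DNA damage. In whole tissue, more cells expressing a gene and more RNA per cell cannot be told apart.

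Leaving out array controls, 719071 probe sets had a log2 signal on each array, and array medians lay between 6.46 and 6.49. Trp53, the gene of p53, averaged 9.74 over its 6 named probe sets in Atr BaxBak mutants and 9.07 in BaxBak controls, and 8.78 in Atr p53 mutants and 8.67 in p53 controls. Atr, Bax and Bak1 had 0 named probe sets and were not analysed here. Label prefix 1836 was held by the 3 Atr BaxBak mutants and by no other sample, so that genotype and whatever the prefix marks cannot be told apart in the BaxBak comparison. The labels do not say whether replicates are from different litters, and the spread behind the p-values may be technical.

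The upstream sequences show how alike the Zscan4 genes are. Of the 9 genes, 5 were found in the RefSeq promoter table (GRCm38.p6), which gives 250 bases before and 50 bases after each annotated start. Zscan4b, Zscan4c, Zscan4d and Zscan4f all held the letters TATAAA on the strand of the gene, starting 31 bases upstream of the annotated start in Zscan4b and Zscan4f, 54 bases upstream in Zscan4c and 65 bases upstream in Zscan4d. The windows below hold 80 bases before and 20 bases after this motif, 106 bases in all, written 5′ to 3′ on the strand of the gene with TATAAA in capitals. They lie at chr7:10905056-10905161 on the minus strand (Zscan4b), chr7:11005611-11005716 on the plus strand (Zscan4c), chr7:11166188-11166293 on the minus strand (Zscan4d) and chr7:11397804-11397909 on the plus strand (Zscan4f).
Zscan4b: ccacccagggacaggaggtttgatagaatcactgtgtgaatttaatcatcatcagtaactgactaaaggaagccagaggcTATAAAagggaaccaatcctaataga
Zscan4c: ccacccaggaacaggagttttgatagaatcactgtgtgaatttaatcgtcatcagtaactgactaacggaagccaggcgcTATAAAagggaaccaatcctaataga
Zscan4d: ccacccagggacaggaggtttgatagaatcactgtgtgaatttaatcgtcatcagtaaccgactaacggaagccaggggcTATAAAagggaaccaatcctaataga
Zscan4f: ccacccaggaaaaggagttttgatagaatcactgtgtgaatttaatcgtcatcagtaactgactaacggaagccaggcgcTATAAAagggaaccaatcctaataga

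Zscan4c and Zscan4f differed at 1 of the 106 positions. Zscan4b differed from Zscan4d at 4 positions, from Zscan4c at 6 and from Zscan4f at 7, and Zscan4d differed from Zscan4c at 4 and from Zscan4f at 5. Over the 250 upstream bases, Zscan4c and Zscan4f were 99.6% identical where they aligned, and Zscan4b and Zscan4c were 94.7% identical. The Gm12794 window held no TATAAA. On either strand the motif was present in 12.4% of the 32851 promoter windows in the table, and on the strand of the gene within the last 100 upstream bases it was present in 3.8%. A match of letters is a description of the sequence and not a mapped binding site.

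Sequence likeness also touched the probe sets themselves. By values, the 38 named probe sets held 27 distinct measurements, 24 of exon regions and 3 of junctions, because identical values were deposited under several names. The junction probe set JUC0700011093.mm.1 stood 5 times in the table, under Zscan4a, Zscan4c, Zscan4d and Zscan4f. A second junction, JUC0700011098.mm.1, stood 4 times under Zscan4b, Zscan4e and Zscan4f, and the last, JUC0700011096.mm.1, stood 2 times under Zscan4b and Zscan4e. Exon probe sets with identical values were shared by Zscan4c and Zscan4f, by Zscan4a and Zscan4c, and by Gm12794 and Gm12800. The values of single Zscan4 genes are therefore not independent of each other, and which copy gave the RNA was not resolved by these probe sets. Each of the 27 distinct probe sets is counted once below. RefSeq lists Zscan4a as a transcribed pseudogene and Zscan4e as a pseudogene, and the other 4 Zscan4 genes as protein coding.

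All 9 genes were higher in every Atr BaxBak mutant than in every BaxBak control. Such a separation was seen in 13.9% of single probe sets on the array, and its share among gene means was not computed. By group mean, 40.5% of all named genes were higher in this comparison. Since the comparison chose the genes, nothing is read from the count. Between Atr p53 mutants and p53 controls 0 of the 9 passed the test by limma, where 0.837% of all named genes did (0 of the 9 and 19.7% of named genes at an unadjusted p under 0.05). The mean of the 6 Zscan4 gene means was 5.17, 5.79 and 6.89 in Atr BaxBak mutants, against 3.12, 3.11 and 3.31 in BaxBak controls. It was 3.53, 3.01 and 3.41 in Atr p53 mutants, against 3.41, 3.32 and 3.29 in p53 controls. The Atr BaxBak mutants thus stood apart from the 9 other samples, which overlapped among themselves. The difference was 2.77 on the log2 scale in the BaxBak comparison, with 5.95 ± 0.87 in mutants and 3.18 ± 0.11 in controls (SD, n = 3 each). It was -0.02 in the p53 comparison, with 3.32 ± 0.27 in mutants and 3.34 ± 0.06 in controls (SD, n = 3 each).

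**Figure D1:**
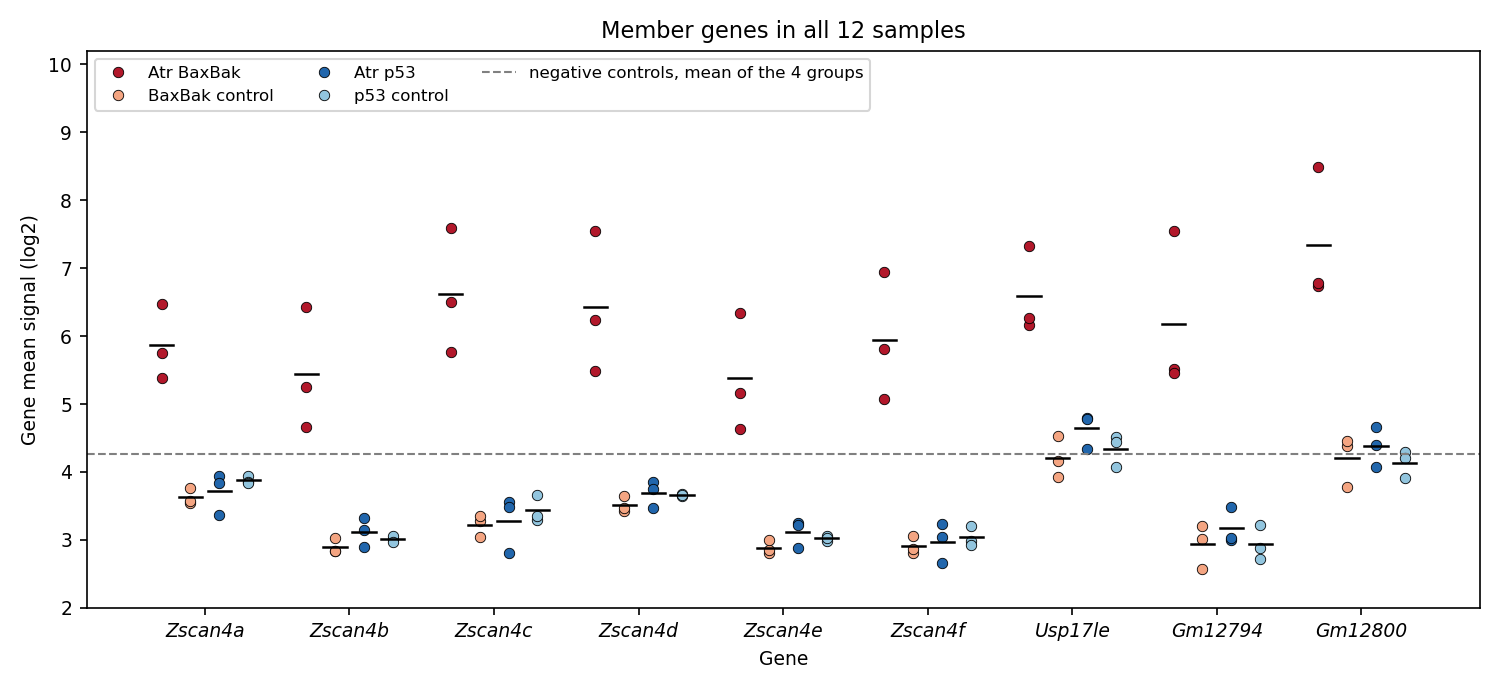
Mean log2 signal of each gene's named probe sets (vertical axis) in each of the 12 samples (points), with group means as horizontal bars, groups ordered within each gene as Atr BaxBak, BaxBak control, Atr p53 and p53 control. The dashed line is the mean signal of the negative control probe sets over the 4 groups, and for every gene the 3 Atr BaxBak mutants lie above all 9 other samples.

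The negative control probe sets of the array, 5222 in number, give the level that the arrays report where no transcript is targeted. Their mean was 4.58, 4.40 and 4.32 in Atr BaxBak mutants, against 4.203, 3.97 and 4.16 in BaxBak controls, and 4.23, 4.50 and 4.15 in Atr p53 mutants, against 4.12, 4.27 and 4.31 in p53 controls. The Atr BaxBak mutants averaged 0.33 above their controls on these probes and the Atr p53 mutants 0.07. Of the 27 distinct probe sets, 20, 24 and 27 lay above the negative control mean in the 3 Atr BaxBak mutants, against 5, 6 and 5 in BaxBak controls. The number was 7, 5 and 6 in Atr p53 mutants, against 7, 5 and 5 in p53 controls. A mean under that of the negative controls gives no level of its own, and a fold against such a group is only a lower bound. The bounds below make no allowance for the 0.33 by which the mutants' own negative controls were higher. They refer to gene means, and single probe sets can differ by less.

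The rank among the negative controls gave the same picture. The median of the 27 probe sets stood at percentile 63.7, 81.8 and 94.2 of the negative controls in Atr BaxBak mutants, against 23.0, 27.5 and 29.5 in BaxBak controls. It stood at 30.2, 19.95 and 34.9 in Atr p53 mutants, against 31.6, 20.5 and 27.6 in p53 controls. In Atr BaxBak 3 there were 9 probe sets above the 95th percentile of the negative controls, and in each of the other 11 samples there were 0. Outside Atr BaxBak 3, every one of the 27 thus lay within the lower 95% of the background distribution.

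**Figure D2:**
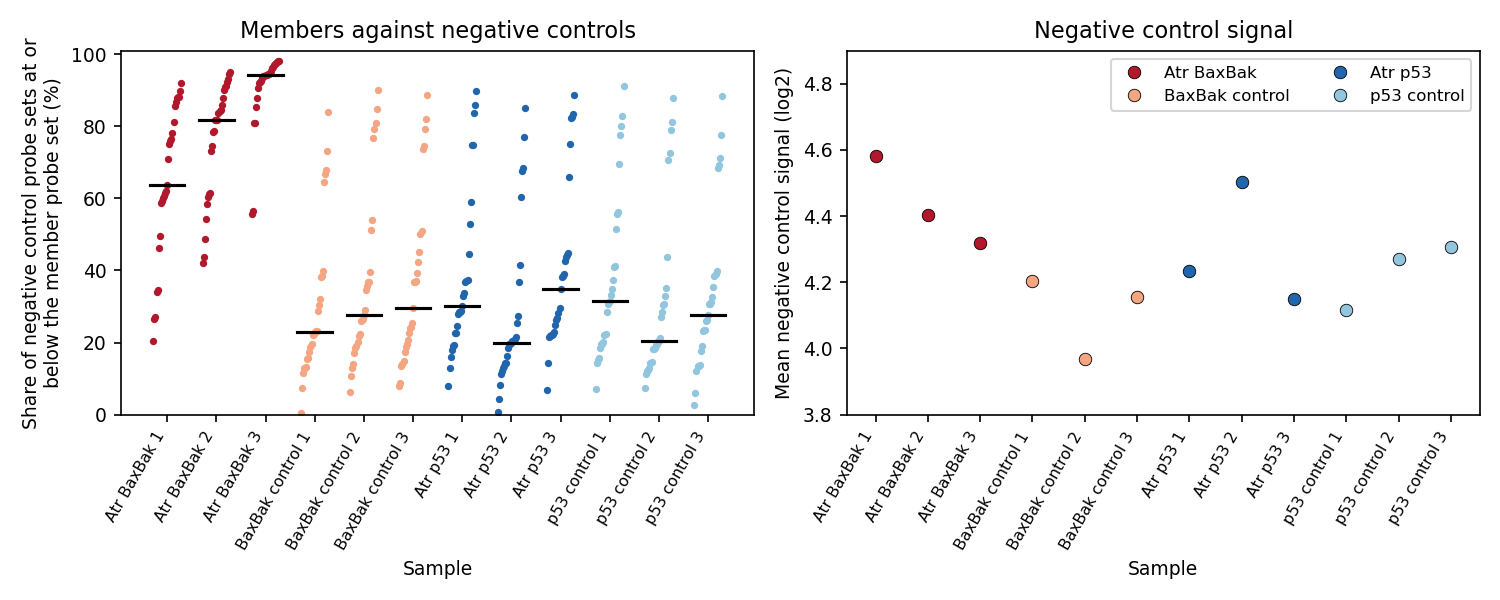
Left, share of the 5222 negative control probe sets at or below each of the 27 distinct probe sets (points, in %) in each sample, with the median as a bar, which stands at 63.7%, 81.8% and 94.2% in the Atr BaxBak mutants. Right, mean log2 signal of the negative controls per array, between 3.97 and 4.58, on an axis that does not start at 0.

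The Atr BaxBak mutants differed among themselves more than the controls did. The highest value over the 12 samples fell in Atr BaxBak 3 for 25 of the 27 probe sets, and the lowest of the 3 mutants was Atr BaxBak 1 for 20. The median SD over the 27 probe sets was 0.98 in Atr BaxBak mutants and 0.21 in BaxBak controls, and 0.28 in Atr p53 mutants and 0.22 in p53 controls. The negative controls ran the other way, with the lowest mean of the 3 mutants in Atr BaxBak 3 (4.32) and the highest in Atr BaxBak 1 (4.58). Without Atr BaxBak 3 the difference was 2.30 for the Zscan4 genes, 2.01 for Usp17le and 2.55 for Gm12794 with Gm12800.

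Zscan4c, a protein-coding copy used in many stem cell studies, had the largest difference of the cluster. Its gene mean was 5.77, 6.51 and 7.59 in Atr BaxBak mutants, against 3.27, 3.04 and 3.35 in BaxBak controls, a difference of 3.40. It was 3.56, 2.81 and 3.48 in Atr p53 mutants, against 3.67, 3.29 and 3.36 in p53 controls, a difference of -0.15. The mutants of the BaxBak pair stood above all other samples, while those of the p53 pair overlapped their controls. The control mean lay under the negative control mean, so the fold is a lower bound, the mutant mean set against each control array's negative control mean, or against the gene's signal where that was higher. By this bound Zscan4c was at least 5.72-fold higher in Atr BaxBak mutants, with the mutants' higher negative controls left aside. Against the negative controls of its own group the mutant mean was 2.19 higher on the log2 scale. That value was 1.01 for Zscan4b and 0.95 for Zscan4e, the lowest of the 9 genes, so their bounds would be smaller on this footing. All 3 probe sets of Zscan4c share their values with another gene of the cluster.

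Zscan4d had a gene mean of 5.48, 6.24 and 7.55 in Atr BaxBak mutants, against 3.43, 3.47 and 3.65 in BaxBak controls, a difference of 2.91 and a fold of at least 4.97. The same gene read 3.86, 3.47 and 3.75 in Atr p53 mutants, against 3.64, 3.68 and 3.66 in p53 controls, a difference of 0.03. The p53 pair overlapped. Its exon probe set PSR0700020774.mm.1, whose values are shared with no other of the 9 genes, read 5.05, 5.91 and 7.58 in Atr BaxBak mutants, against 2.80, 2.79 and 2.82 in BaxBak controls. The brightest, PSR0700020775.mm.1, also unshared, averaged 5.24 in BaxBak controls, above the negative controls at 4.11. It differed by 1.99, a fold of 3.98, which is smaller than the bound from the gene mean. Another, PSR0700020779.mm.1, read 2.82, 2.87 and 2.70 in Atr p53 mutants, against 2.35, 2.42 and 2.32 in p53 controls. These p53 groups did not overlap, but all 6 values lay under the negative control mean and the difference of 0.43 did not pass the test (adjusted p = 0.859, limma).

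Zscan4f, with 10 probe sets of 8 distinct values the most densely covered copy, had a gene mean of 5.07, 5.81 and 6.94 in Atr BaxBak mutants, against 2.81, 2.87 and 3.05 in BaxBak controls. The difference was 3.03 and the fold at least 3.56. Zscan4f was 3.23, 2.65 and 3.04 in Atr p53 mutants, against 3.21, 2.98 and 2.92 in p53 controls. Its difference of -0.06 in the p53 pair was smaller than the spread within either group. Of the probe sets that carry only its name, PSR0700001019.mm.1 read 6.05, 6.52 and 8.21 in Atr BaxBak mutants, against 3.22, 3.86 and 4.07 in BaxBak controls.

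Zscan4a, the transcribed pseudogene, had a gene mean of 5.38, 5.75 and 6.47 in Atr BaxBak mutants, against 3.54, 3.58 and 3.76 in BaxBak controls. The difference was 2.24 and the fold at least 3.38. In Atr p53 mutants Zscan4a was 3.94, 3.37 and 3.84, against 3.94, 3.85 and 3.83 in p53 controls, a difference of -0.16. The p53 groups overlapped. Its probe sets disagreed in size. The junction shared with Zscan4c, Zscan4d and Zscan4f differed by 3.84 in the BaxBak comparison, while the exon probe set PSR0700020764.mm.1 differed by 0.73. That exon probe set read 5.86, 5.69 and 5.79 in Atr BaxBak mutants, against 4.88, 5.16 and 5.13 in BaxBak controls. Its fold of 1.65 is smaller than the bound from the gene mean.

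Zscan4b and Zscan4e share both of their junctions and gave close values. Zscan4b was 4.66, 5.26 and 6.43 in Atr BaxBak mutants, against 2.83, 2.84 and 3.03 in BaxBak controls, a difference of 2.55 and a fold of at least 2.53. Zscan4e, the pseudogene, was 4.64, 5.17 and 6.34 in Atr BaxBak mutants, against 2.81, 2.85 and 2.99 in BaxBak controls, a difference of 2.49 and a fold of at least 2.42. Both copies were lowest in Atr BaxBak 1 and highest in Atr BaxBak 3 among the mutants. In Atr p53 mutants Zscan4b was 3.32, 2.89 and 3.15, against 3.02, 3.06 and 2.96 in p53 controls, a difference of 0.11. Zscan4e was 3.26, 2.88 and 3.21 in Atr p53 mutants, against 2.99, 3.06 and 3.03 in p53 controls, a difference of 0.09. For both genes the Atr p53 mutants lay on either side of their controls.

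Usp17le, the deubiquitinase gene, also lies on chromosome 7. Its gene mean was 6.16, 6.27 and 7.32 in Atr BaxBak mutants, against 3.93, 4.16 and 4.53 in BaxBak controls, a difference of 2.38. The control mean was 0.09 above that of the negative controls, so the fold of the gene mean is again given as a bound, at least 4.89. Its values were 4.80, 4.34 and 4.78 in Atr p53 mutants, against 4.51, 4.07 and 4.44 in p53 controls, a difference of 0.30. The BaxBak groups did not overlap, and the p53 groups did. The 3 exon probe sets disagreed in size. PSR0700033027.mm.1 differed by 3.42 and PSR0700033028.mm.1 by 3.03 in the BaxBak comparison. The brightest probe set, PSR0700033025.mm.1, differed by 0.69, with 6.37, 6.77 and 6.74 in Atr BaxBak mutants, against 5.75, 5.98 and 6.07 in BaxBak controls. Its fold of 1.61 is smaller than the bound from the gene mean. Its values were already high among the negative controls in every sample.

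Gm12794 (Pramel19), on chromosome 4, was 5.51, 5.46 and 7.55 in Atr BaxBak mutants, against 2.57, 3.01 and 3.21 in BaxBak controls, a difference of 3.24 and a fold of at least 4.19. In Atr p53 mutants it was 3.00, 3.03 and 3.48, against 3.21, 2.72 and 2.88 in p53 controls, a difference of 0.23. Gm12800 was 6.73, 6.78 and 8.49 in Atr BaxBak mutants, against 3.78, 4.39 and 4.45 in BaxBak controls, a difference of 3.13 and, with a control mean 0.10 above that of the negative controls, a fold of at least 7.93. Atr BaxBak 3 stood well above the other mutants for both genes. In Atr p53 mutants Gm12800 was 4.40, 4.07 and 4.66, against 4.29, 3.91 and 4.21 in p53 controls, a difference of 0.24. The exon probe set that the pair shares had the largest difference of all 27, 3.97, with 6.53, 6.68 and 8.59 in Atr BaxBak mutants, against 2.84, 3.22 and 3.82 in BaxBak controls. The other probe set of Gm12800, PSR0400007097.mm.1, averaged 5.12 in BaxBak controls, above the negative controls at 4.11. It differed by 2.29, a fold of 4.87, which is smaller than the bound from the gene mean. The p53 groups overlapped for both genes.

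**Figure D3:**
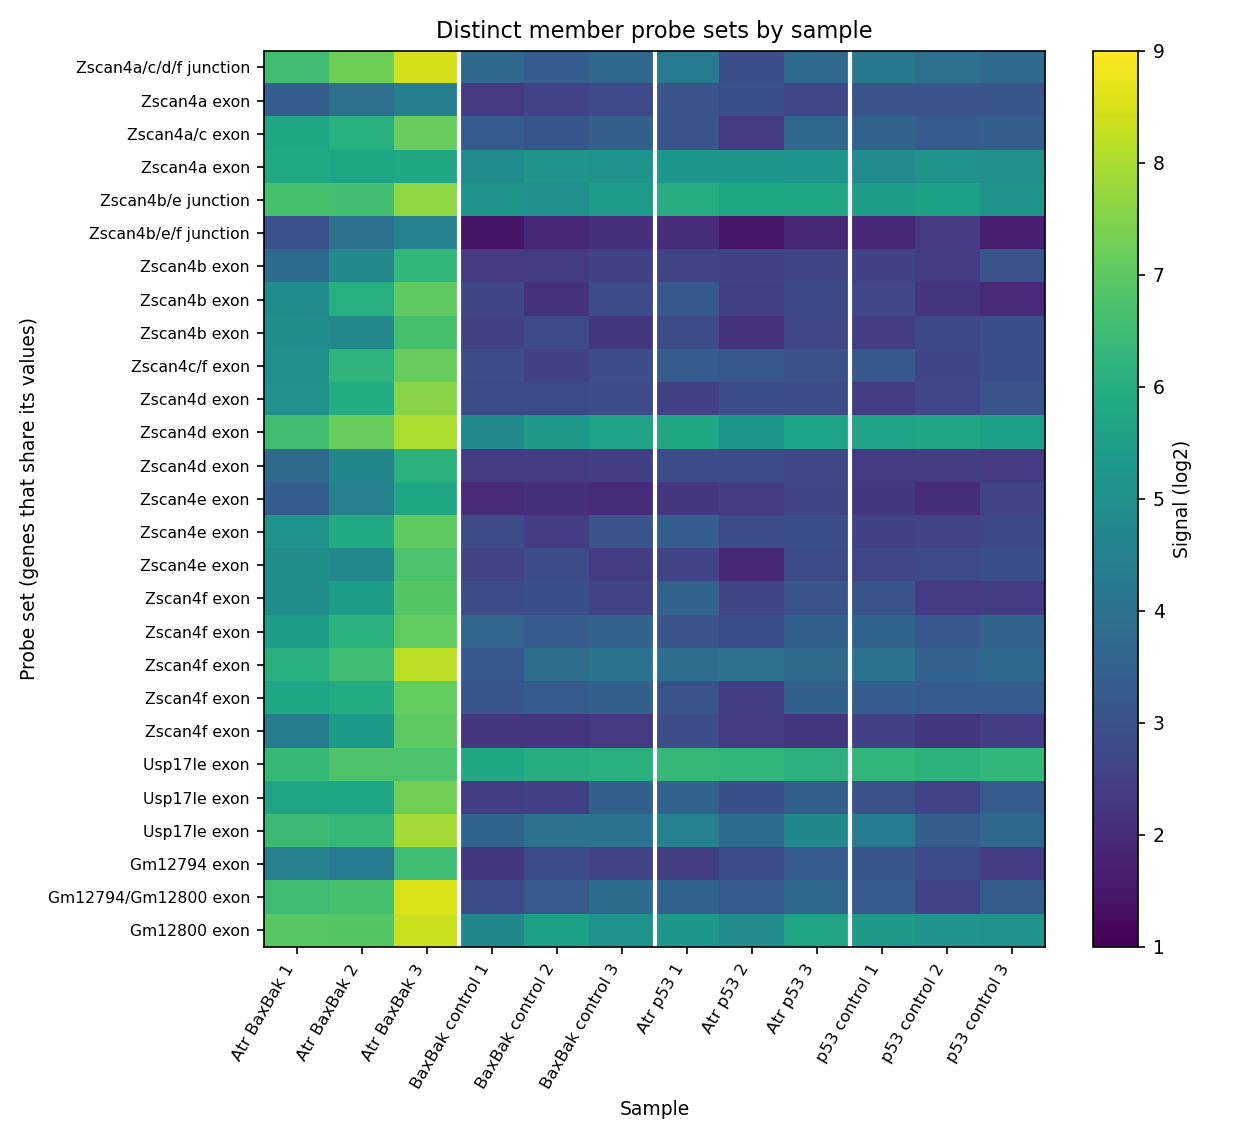
Log2 signal (colour) of the 27 distinct probe sets (rows, named by the genes that share their values and by exon or junction) in the 12 samples (columns, Atr BaxBak mutants at the left). The 3 left columns are brighter than the rest in every row, and Atr BaxBak 3 is the brightest of all columns in 25 rows.

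All 27 probe sets were higher in each Atr BaxBak mutant than in each BaxBak control, where 13.9% of the 719071 probe sets of the array showed such a separation upward. By limma with Benjamini-Hochberg adjustment over the array, 2.22% of probe sets passed the threshold of 0.05 upward in that comparison and 5.24% in either direction. Since the comparison chose the genes, these counts and those that follow are descriptions. Differences ran from 0.69 to 3.97, with a median of 2.91, while the median over the array was -0.02 and over the named genes -0.34. Differences over 2 were seen in 22 of the 27 and in 0.0574% of the array, and differences over 1 in 25 and in 0.952%. Ranked by this difference among the 8126 named genes, one of the 9 genes stood first and 8 stood among the 25 highest.

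Most of the probe sets were under the negative control mean in 3 of the 4 groups. In BaxBak controls, 22 of the 27 probe sets had a mean under that of the negative controls, and their differences ran from 1.37 to 3.97. The 5 at or above it had differences from 0.69 to 2.29. In Atr BaxBak mutants 2 probe sets had a mean under that of the negative controls, against 21 in Atr p53 mutants and 22 in p53 controls.

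In the authors' deposited table the step-up adjusted p of these probe sets in the BaxBak comparison ran from 0.00888 to 0.0476, and the fold from 1.61 to 15.7. The probe set just inside the threshold was PSR0400007099.mm.1 of Gm12794, at the highest of these p values, with 4.50, 4.25 and 6.52 in Atr BaxBak mutants, against 2.31, 2.80 and 2.60 in BaxBak controls. No step-up p is given here for probe sets outside the table, and the nearest by identifier are described instead. In all, 32 probe sets with identifiers between those of the named ones were not listed by the authors and carry no name. Their 27 distinct values differed by -0.51 to 2.95 in the BaxBak comparison, with a median of 0.50. Of these, 23 were higher in Atr BaxBak mutants, 8 by more than 1 and 3 by more than 2. These neighbours are known here only by their identifiers.

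**Figure D4:**
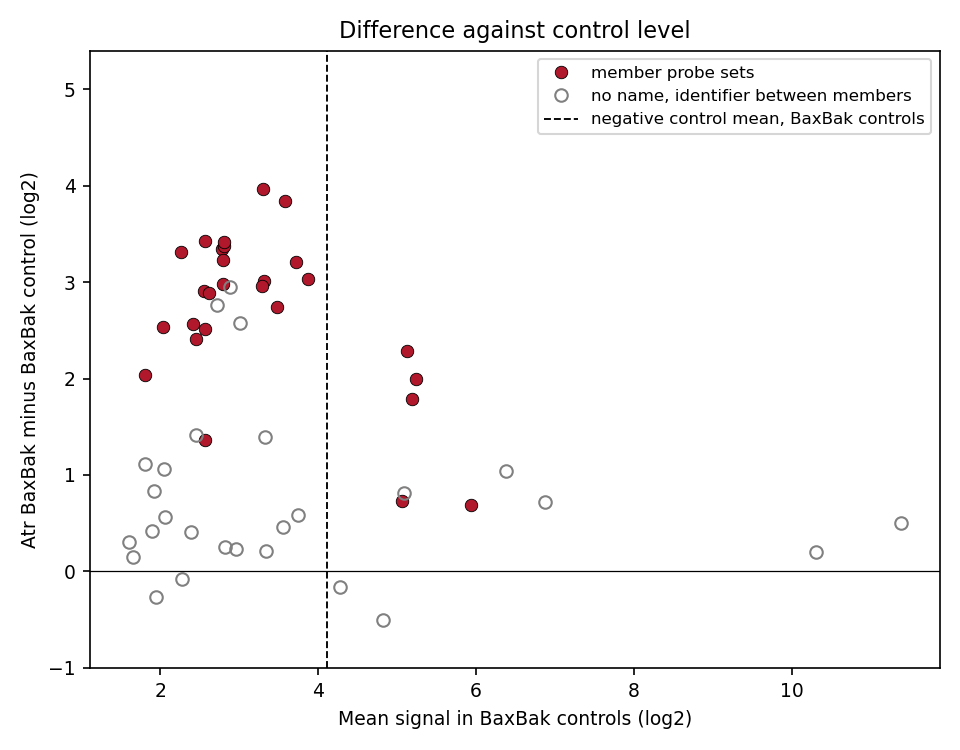
Difference between Atr BaxBak mutants and BaxBak controls (vertical axis, log2) against the mean signal in BaxBak controls (horizontal axis, log2), for the 27 distinct named probe sets (filled) and the 27 distinct unnamed probe sets with neighbouring identifiers (open). Of the filled points, 22 lie left of the dashed line at the negative control mean, and the 5 to its right have differences from 0.69 to 2.29.

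The comparison of Atr p53 mutants with p53 controls asked whether loss of Atr goes with the same genes where p53 is lost as well. Of the 9 gene means, 0 passed limma with Benjamini-Hochberg adjustment over the 8126 named genes, and 0 had an unadjusted p under 0.05. Over the named genes 0.837% passed, and the unadjusted p was under 0.05 in 19.7%. The lowest adjusted p among the 9 genes was that of Usp17le, 0.319, at a difference of 0.30 with a 95% interval of -0.06 to 0.66. The intervals were -0.48 to 0.17 for Zscan4a, -0.14 to 0.36 for Zscan4b and -0.62 to 0.31 for Zscan4c. They were -0.20 to 0.27 for Zscan4d, -0.15 to 0.33 for Zscan4e and -0.41 to 0.29 for Zscan4f. Gm12794 had an interval of -0.15 to 0.61 and Gm12800 one of -0.13 to 0.61. The highest of the 9 upper bounds was 0.66. In the p53 pair, 7 of the 9 genes, the 6 Zscan4 genes and Gm12794, had means below the negative control mean in mutants and in controls, so the intervals bound the signal and not the RNA.

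**Figure D5:**
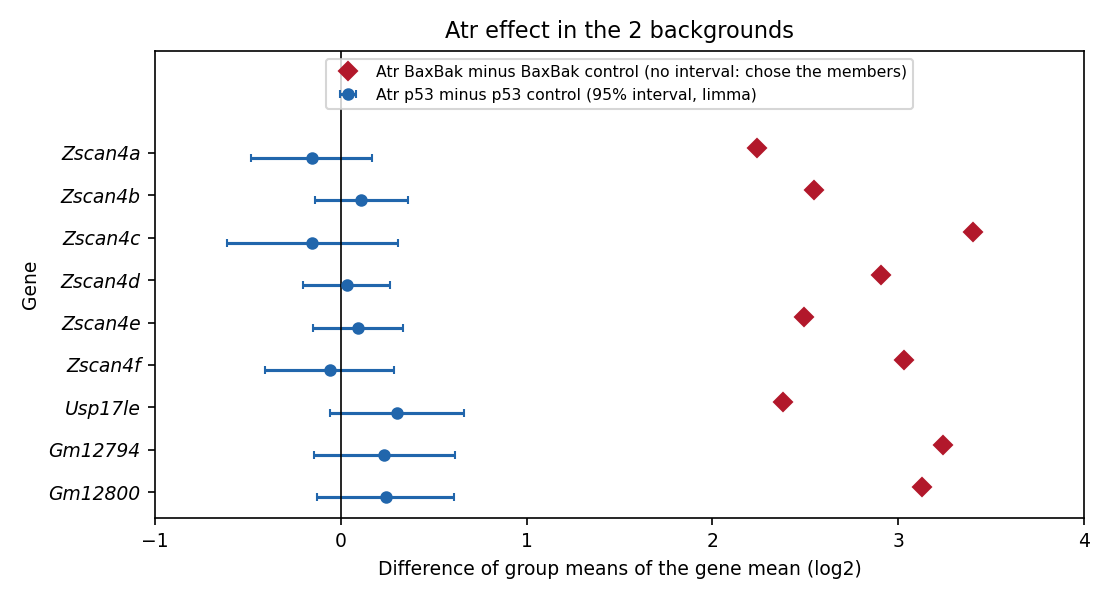
Difference of group means of the gene mean (horizontal axis, log2) for the 9 genes, with Atr BaxBak minus BaxBak control as diamonds and Atr p53 minus p53 control as circles with limma's 95% interval. The diamonds lie between 2.24 and 3.40 and carry no interval because that comparison chose the genes, and the intervals of all 9 circles include 0.

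Probe set by probe set, 0 of the 27 passed over the array in the p53 comparison, and in 3 the unadjusted p was under 0.05. Over all 719071 probe sets 0 passed as well (0% called), and the unadjusted p was under 0.05 in 5.36%. The lowest adjusted p of the 27 was 0.859. Of the 27, 17 were higher and 10 lower in Atr p53 mutants, with differences from -0.37 to 0.56 and a median of 0.08, beside a median of -0.02 over the array. The groups did not overlap upward in 4, where 4.79% of the array did so, and downward in 0, where 5.98% did. The 4 are PSR0700020764.mm.1 of Zscan4a, the junction shared by Zscan4b and Zscan4e, PSR0700020779.mm.1 of Zscan4d and PSR0700020784.mm.1 of Zscan4e. That junction read 5.98, 5.74 and 5.72 in Atr p53 mutants, against 5.45, 5.56 and 5.16 in p53 controls, a difference of 0.42. In the authors' deposited table the lowest step-up p of these probe sets in the p53 comparison was 0.643, with folds from -1.29 to 1.47.

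Within label prefix 1843, which held the 3 Atr p53 mutants and 1 p53 control, the gene differences ran from -0.38 for Zscan4c to 0.13 for Usp17le and Zscan4e, and that of Gm12794 was -0.04. The fit with the prefix as a block gave the same differences, and 0 genes were called in either, though with 1 control in the prefix little could be called.

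The mutant groups can also be set side by side. All 27 probe sets were higher in each Atr BaxBak mutant than in each Atr p53 mutant, where 11.5% of the array was so. The gene means differed by 1.94 for Usp17le to 3.34 for Zscan4c between the mutant groups. The Atr BaxBak mutants took part in the choice of the genes, so this separation is a description. The control groups lay close together, with differences between p53 controls and BaxBak controls from -0.07 for Gm12800 to 0.25 for Zscan4a.

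The genes whose pattern over the 12 samples was most like that of the 9 were looked up among the named genes with at least 2 probe sets, by Pearson correlation of gene means. Gm6351 and Gm7982, which have identical values, came first for all 3 patterns, with r = 0.989 to the Zscan4 mean, 0.987 to Usp17le and 0.980 to the mean of Gm12794 and Gm12800. They read 4.61, 4.88 and 5.84 in Atr BaxBak mutants, against 2.45, 2.65 and 2.66 in BaxBak controls. The next closest to the Zscan4 mean were LOC620551 (0.980), Pnliprp2 (0.979), a gene of the pancreatic lipase family, and Gm6348 (0.979). The next closest to Usp17le were Gm3987 (0.985) and Gm3984 (0.980), listed by RefSeq as Obox4 pseudogenes on chromosome 7, and Gm6509 (0.980), listed as Pramel44. For Gm12794 and Gm12800 they were Gm6509 (0.973), Pnliprp2 (0.969) and Hepacam (0.967), a glial adhesion gene that differed by 0.46 in the BaxBak comparison. Among the 9 genes themselves, Usp17le, Gm12794 and Gm12800 correlated with the Zscan4 mean at 0.980, 0.981 and 0.985. The correlations rest on the gap between the Atr BaxBak mutants and the 9 other samples. They carry no test, and the median r over all named genes was -0.63 for the Zscan4 mean.

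In the p53 comparison none of these similar genes passed. Gm3984 had the largest difference, 0.62, with 4.80, 4.14 and 4.39 in Atr p53 mutants, against 4.04, 3.67 and 3.76 in p53 controls (adjusted p = 0.149, limma). Gm3987 differed by 0.58 (adjusted p = 0.172, limma). In both genes the Atr p53 mutants lay above their controls in all 3 samples, but neither difference passed the adjustment. Such a separation was seen in 4.79% of single probe sets on the array, and its share among gene means was not computed. The values were near or under the negative controls, at 4.30 in Atr p53 mutants and 4.23 in p53 controls. Gm3984 averaged 4.44 and 3.82 in these groups, and Gm3987 averaged 4.25 and 3.67.

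Other genes of the same stage were few among the named genes. Of 67 genes listed as active in the cleavage-stage embryo beside the 9, 9 were named. In the p53 comparison 0 of them passed in either direction and 4 had an unadjusted p under 0.05, beside 19.7% of all named genes. The median difference was 0.03, beside -0.03 over all named genes. Their median in the BaxBak comparison was 0.33, with 5 higher and 4 lower, beside -0.34 over all named genes. A gene carries a name here only if the authors' BaxBak test lists it, so in every list below the named genes were selected to differ in that comparison, and genes without a name are not counted. BC080695 read 4.14, 4.56 and 5.25 in Atr BaxBak mutants, against 3.51, 3.06 and 3.14 in BaxBak controls. Its control mean of 3.23 lay under the negative controls at 4.11. The mutant mean of 4.65 lay near theirs at 4.43, so no size is given for the difference. Pramef8, of the PRAME family, differed by 0.83 and D5Ertd577e by 0.65, while E330034G19Rik was under the negative control mean in all 4 groups. Dux, the activator named above, was not among the named genes and was not analysed here.

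Of 27 pluripotency and germ cell genes, 2 were named, and 0 passed in the p53 comparison. Tfcp2l1, a transcription factor of naive stem cells that is also found in epithelia, read 7.87, 7.56 and 7.30 in Atr BaxBak mutants, against 6.24, 5.49 and 6.26 in BaxBak controls, a difference of 1.58. Its order among the mutants was the reverse of that of the Zscan4 genes, with Atr BaxBak 1 the highest. Its difference in the p53 comparison was 0.39 (adjusted p = 0.184, limma). Dppa5a, an RNA-binding protein gene of stem cells with a single probe set, differed by 0.33 in the BaxBak comparison and read 9.89 or more in all 12 samples. Of 8 markers of embryonic stem and germ cells, Dppa5a was the only one named, so the presence of such cells was not tested.

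Genes known to hold early embryonic loci silent numbered 30, of which 26 were named. Of these, 24 were lower and 2 higher in Atr BaxBak mutants, beside 59.5% of all named genes that were lower, with a median of -0.50 beside -0.34. Pcgf6, a Polycomb group gene, averaged 3.13 in Atr BaxBak mutants, under the negative controls at 4.43, and 4.53 in BaxBak controls, near theirs at 4.11, so no size is given for its difference. Chaf1b and Uhrf1, which act in chromatin assembly and in maintenance of DNA methylation during replication, differed by -1.10 and -1.01. Usp7, a deubiquitinase, differed by 1.03. In the p53 comparison the median was -0.13 beside -0.03 over all named genes, 21 of the 26 were lower, beside 58.2% of named genes, 3 had an unadjusted p under 0.05, beside 19.7%, and 0 passed. Chaf1b differed by -0.44 there (adjusted p = 0.179, limma).

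Genes of telomeres and meiotic recombination, the processes in which Zscan4 has been studied, numbered 18, of which 9 were named. Their median was -0.46 in the BaxBak comparison, beside -0.34 over all named genes. Of the 9 named, 2 were higher and 7 lower, beside 59.5% of all named genes that were lower. Dkc1, a telomerase component, differed by -0.73, Terf1, a telomere-binding protein gene, by -0.68 and Blm, a helicase gene, by -0.67. Tet2, a DNA demethylation enzyme gene, differed by 0.70. In the p53 comparison the median was -0.05, beside -0.03 over all named genes, 2 had an unadjusted p under 0.05, beside 19.7%, and 0 passed. One of the 2, Dmc1, the meiotic recombinase gene, was picked out after its values were seen. It read 5.53, 5.54 and 5.68 in Atr p53 mutants, against 5.19, 5.22 and 5.20 in p53 controls, a difference of 0.38 (adjusted p = 0.0571, limma). It read 5.29, 5.47 and 5.35 in Atr BaxBak mutants, against 4.98, 4.82 and 4.98 in BaxBak controls. Neither pair of groups overlapped for this single probe set. Over the array, 13.9% of probe sets were so separated upward in the BaxBak comparison and 4.79% in the p53 comparison. The other of the 2, Rtel1, went the opposite way in the p53 comparison, with a difference of -0.295 (adjusted p = 0.145, limma).

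Cell type markers are given for the named genes of each list, which the same selection limits. The mean level of the 10 named granule cell lineage markers (of 12) ran from 9.11 to 9.26 in Atr BaxBak mutants, against 9.75 to 9.85 in BaxBak controls. All 10 were lower, beside 59.5% of all named genes. Their mean level ran from 9.29 to 9.51 in Atr p53 mutants, against 9.57 to 9.73 in p53 controls. There 9 of the 10 were lower, beside 58.2% of named genes, 5 had an unadjusted p under 0.05, beside 19.7%, and 0 passed. The mean level of the 5 named astroglial markers (of 6) ran from 8.98 to 9.08 in Atr BaxBak mutants, against 7.78 to 8.11 in BaxBak controls. All 5 were higher, beside 40.5% of all named genes. In the p53 comparison 1 of these 5 was higher and 4 lower, with a median of -0.14, and 0 passed. The mean level of the 4 named Purkinje cell markers (of 5) ran from 9.41 to 9.47 in Atr BaxBak mutants, against 8.33 to 8.64 in BaxBak controls. All 4 were higher, beside the same 40.5%. In the p53 comparison 2 of these 4 were higher and 2 lower, with a median of 0.0014, and 0 passed. The labelled tissue thus showed its markers in every sample, and the part of a changed cell makeup in the values of the 9 genes was not tested.

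Markers of cells around the cerebellum were sparse among the named genes. Of meningeal and fibroblast markers 2 of 6 were named, and they went opposite ways in the BaxBak comparison, with a median difference of -0.02. Col1a1 differed by -0.98 and Bgn by 0.95, the latter from a control mean of 3.88, under the negative controls at 4.11. Of microglial markers 3 of 5 were named, with a median of 0.36. Cx3cr1 and P2ry12 differed by 0.36 and 0.42 and Mrc1 by -0.63. Of choroid plexus markers 1 of 4 was named, at -0.82, and of erythroid markers 1 of 4, at 0.47. In the p53 comparison 0 of these 7 markers passed.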

How the data were processed

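RNA of 12 cerebella was measured on Affymetrix exon and junction arrays, from 500 ng of total RNA, per the labels' protocols. The authors deposited log2 signals per probe set, and tables that name probe sets and give each a p-value, a step-up p-value and a fold written as a signed score (negative where lower). The submitters' processing notes name Partek, with no role or version. How background was corrected, arrays were normalized and probe sets were annotated is not given in the sources used here. Of 725678 probe sets, 61 without values and the array controls were left out. The authors' folds equalled those of the log2 values to within 9.27e-05. Gene values are averages over named probe sets. The 6 p53 samples were fitted alone (limma 3.58.1, R 4.3.3, lmFit and eBayes, two-sided tests), adjusted by Benjamini-Hochberg over all probe sets or named genes, with a threshold of 0.05. The BaxBak background was fitted over all 12 samples. The fits were tested on simulated data. Replicates are numbered in accession order. The genes, lists and tests were chosen with earlier results of these data known. Named besides the 9 genes are the 5 most correlated genes per pattern. Per list, genes that passed in the p53 comparison and up to 4 with the largest BaxBak difference are named. Dmc1 and Rtel1 were added after their values were seen. Sequences are from RefSeq (GRCm38.p6). The number of arrays limits the precision.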

Additional observations from a re-analysis of the deposited data

How the results depend on the processing

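The p53 comparison had 13 alternatives (all 12 samples, other scalings and filters, trend and robust moderation, the label prefix, each replicate left out). Of the 9 genes and their 27 distinct probe sets, 0 of those tested passed, leaving aside the fit within prefix 1843, where little could be called. With only features above the negative controls, 9 of the 27 probe sets and 4 of the 9 genes were tested, and the other 12 alternatives tested all. Over the array the count was 0, against 32 with all 12 samples, 12 minus the negative control mean, 5 with only probe sets above the negative controls and 17 with trend and robust moderation; the causes were not tested. The p53 difference of Gm12794 was -0.04 with the prefix as a block or within prefix 1843. In the BaxBak comparison 37680 probe sets passed, 94272 minus the negative control mean, and 7554 (without BaxBak control 2) to 15943 with a replicate left out, where fewer samples entered the fit. The Zscan4 difference ran from 2.30 to 3.16 and that of Gm12794 with Gm12800 from 2.55 to 3.55, both lowest without Atr BaxBak 3. Usp17le ran from 0.69 (brightest probe set) to 2.81, with 1.86 for probe sets above the negative controls. Counting each distinct probe set once, chosen after the data were seen, gave 2.70 for Zscan4. Junctions alone gave no value for Usp17le, Gm12794 and Gm12800. No paired analysis was possible because the labels give the groups no shared replicate numbers.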
